A study of Mus musculus with 3 samples.

Results

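Among bone marrow derived macrophages (BMDMs) sequenced cell by cell, the cells richest in transcripts of *Apoe*, *Slc9a9* and *Selenop* were examined, first against the remaining cells of the same library and then for their response to borrelial lipoprotein. A score was computed for each cell as the unique molecular identifiers (UMIs, each marking 1 captured mRNA molecule) of the 3 genes divided by all UMIs of the cell. The 20% of cells with the highest score in each library were taken as members, which gave 3125 of the 15626 scored cells, with 1190 of 5949 in the untreated library, 1010 of 5052 after 1 hour and 925 of 4625 after 4 hours. The scored cells were those with at least 2000 UMIs among 15806 barcodes that passed the study's limits (over 500 UMIs, over 500 genes and under 5% mitochondrial UMIs), of 16281 deposited. The set of cells carried forward in the study was smaller and was not used here.

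The BMDMs came from marrow of female C3H/HeN mice of 6 to 8 weeks, a strain used as a model of Lyme disease. They were grown with L929-cell conditioned medium as the source of macrophage growth factor. For these libraries the study describes BMDMs of 3 mice that were treated apart, with the cells pooled before each library was made. Cells were given *Bb*LP, the lipoproteins purified by detergent from the Lyme disease spirochete *Borrelia burgdorferi*, at 1 µg/mL and taken after 1 hour (LP1) or after 4 (LP4), or were given buffer alone (Ctrl, labelled untreated). The study took the buffer-treated cells at 4 hours, so LP1 differs from Ctrl in time of collection as well as in lipoprotein. Each condition was 1 library made from pooled cultures, so no difference between conditions had a replicate, no test was possible, and every interval below covers counting error only. Because the 3 genes chose the members, all values of members against other cells are given as a description.

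Macrophages clear dying cells and microbes, handle the lipid that comes with them, and pass signals to other cells through cytokines and chemokines. Apolipoprotein E (*Apoe*) is secreted by macrophages and carries cholesterol away from them in lipoprotein particles. *Slc9a9* encodes NHE9, an exchanger of sodium or potassium for protons in the membrane of endosomes, where it bears on their acidity. Selenoprotein P (*Selenop*) is a secreted protein with several selenocysteines that carries selenium between tissues. The study listed all 3, on these samples, among genes of macrophages with a phagocytic profile, but elsewhere in its text it gave *Apoe* and *Slc9a9* to antigen-presenting cells and *Fgf13* and *Ccnd1* to inflammatory ones. Bacterial lipoproteins are sensed by Toll-like receptor 2 (*Tlr2*) with a partner receptor, helped by *Cd14*, and the signal passes through *Myd88* to NF-κB and MAP kinases, which switch on cytokine genes, while a later wave of interferon-stimulated genes (ISGs) is driven by interferon signalling.

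The 3 genes lie on different chromosomes and differ widely in length. *Apoe* (ENSMUSG00000002985) spans 3080 bases on the minus strand at chr7:19696109-19699188 of GRCm38, at one end of a cluster of 27.6 kb with *Apoc1*, *Apoc4* and *Apoc2*. *Slc9a9* (ENSMUSG00000031129) spans 560537 bases of the plus strand at chr9:94669909-95230445, and *Selenop* (ENSMUSG00000064373) spans 11962 bases of the plus strand at chr15:3268547-3280508. Their promoters are shown because these genes define the members and each moved in its own way after *Bb*LP. Each sequence runs from 250 bases before to 50 bases after a start site given by RefSeq on GRCm38.p6, 5′ to 3′ on the strand of the gene, at chr7:19699139-19699438 for *Apoe* (minus), chr9:94669642-94669941 for *Slc9a9* (plus) and chr15:3270517-3270816 for *Selenop* (plus). There were 3 promoter entries each for *Apoe* and *Selenop* and 1 for *Slc9a9*, and 1 is shown per gene. The *Selenop* window lies inside the span of the gene given above. Capitals mark matches, on either strand, to the core motifs of AP-1 (TGANTCA) or PU.1 (GAGGAA, which reads as TTCCTC from the other strand).
Apoe: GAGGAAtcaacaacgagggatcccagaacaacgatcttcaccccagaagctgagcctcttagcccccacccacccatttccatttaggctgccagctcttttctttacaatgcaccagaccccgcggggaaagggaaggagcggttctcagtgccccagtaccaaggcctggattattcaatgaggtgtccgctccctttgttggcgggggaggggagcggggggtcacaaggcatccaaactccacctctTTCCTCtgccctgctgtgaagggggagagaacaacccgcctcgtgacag
Slc9a9: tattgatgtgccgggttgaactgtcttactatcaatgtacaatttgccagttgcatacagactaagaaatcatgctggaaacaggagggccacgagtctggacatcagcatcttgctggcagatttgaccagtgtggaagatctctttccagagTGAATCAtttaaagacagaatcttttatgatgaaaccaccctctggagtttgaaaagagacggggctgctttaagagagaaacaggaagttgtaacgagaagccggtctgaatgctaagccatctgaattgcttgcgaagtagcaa
Selenop: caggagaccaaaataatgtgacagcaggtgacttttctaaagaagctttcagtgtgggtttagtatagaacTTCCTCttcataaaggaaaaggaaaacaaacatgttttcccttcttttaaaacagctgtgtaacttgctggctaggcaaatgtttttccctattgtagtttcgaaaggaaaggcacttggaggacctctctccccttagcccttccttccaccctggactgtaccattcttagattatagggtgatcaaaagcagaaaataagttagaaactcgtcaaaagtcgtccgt
*Apoe* held a PU.1 core at -250 and another at 1, counted from the start base as 0, *Selenop* held 1 at -179, and *Slc9a9* held 1 AP-1 core at -96 and no PU.1 core. None of the 3 windows held an E-box (CACGTG), an NR4A site (AAAGGTCA), a MAF half-site (TGCTGAC) or a TATA box (TATAAA). PU.1 cores are common, in 28.3% of the 32851 mouse promoter windows of this length, and AP-1 cores were in 7.81%, so a match describes the letters of a window and not a site in use. Promoters were found by symbol for 60 of the 78 genes described.

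The members carried the markers of macrophages, with more of the monocyte markers than the other cells and next to none of lymphoid, mast or erythroid cells. The 9 macrophage markers (*Lyz2*, *Csf1r*, *Adgre1*, *Cd68*, *Ptprc* and others) summed to 17798 CPM (counts per 1000000 of the summed UMIs of the same cells) in Ctrl members, 19232 in LP1 and 17180 in LP4, against 10757, 10796 and 10105 in the other cells, with none at 0. Most of that sum, and of its excess in members, was *Lyz2*, at 14592 against 8157 CPM in Ctrl, 16376 against 8427 in LP1 and 14441 against 7691 in LP4. Of the 9, 4, 4 and 2 were 1.5-fold higher in members, where 7.87%, 8.29% and 4.31% of all genes were, while *Cd68* (781 against 902 CPM in Ctrl) and *Itgam* (160 against 190) were at slightly lower levels. The monocyte list of 7 genes summed to 179 CPM in members against 70.7 in other cells of Ctrl, 174 against 68.4 in LP1 and 934 against 489 in LP4, with 1 gene at 0 in members. Most of that excess was *F13a1*, a gene also in the resident-type list below, at 119 against 25.1, 104 against 18.2 and 463 against 101 CPM. The dendritic cell list of 11 genes summed to 229 against 138 CPM, 242 against 134 and 165 against 152, most of it *Cd74*, with 2 at 0 in members. The part of monocytes or dendritic cells in the results was not tested. T and NK cell, mast cell, erythroid and B cell markers summed to at most 5.21 CPM in the members of any library, and erythroid markers were all at 0. Neutrophil markers summed to 313, 251 and 288 CPM in members and to 519, 482 and 831 in other cells, and in members most of this was *Mmp8* (239, 238 and 249 CPM), while 3, 5 and 2 of the 10 neutrophil markers were at 0. Stromal markers, of the fibroblast type, were at 0 in Ctrl and LP1 members and at 16.1 CPM in LP4, against 5.14, 6.97 and 21.1 in other cells. The cells thus carried the defining markers of macrophages, but a top share of a continuous score is a range of cells and not a separate type.

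Scores fell off smoothly, with no gap at the cut. The cut lay at 2066 CPM of the 3 genes together in Ctrl, with 1495 in LP1 and 1473 after 4 hours. Members had a median score of 3264, 2610 and 2332. In Ctrl the last cell inside the cut scored 2065.6 and the first outside 2065.5, in LP1 1495.3 and 1494.8, and in LP4 1473.5 and 1472.6. Within 10% of the cut lay 129 members and 144 other cells in Ctrl, 90 and 108 in LP1, and 101 and 133 in LP4. Members were the smaller cells by RNA captured, with a median of 4118 UMIs against 5510 in Ctrl, 7120 against 9869 in LP1 and 9176 against 12650 after 4 hours. The lowest decile (10%) of cells by UMIs held 37% members in Ctrl where the highest held 11.3%. The median share of mitochondrial UMIs was alike, at 1.97% against 1.98%, 2.82% against 2.85% and 2.93% against 3.23%. With the top 20% taken within each decile of UMIs per cell instead, 93 genes in place of 167 (2.4% of those tested) were at least 1.5-fold higher in members of all 3 libraries and 215 in place of 426 (6.12%) lower. Nuclear-retained RNAs, a sign of RNA quality, summed to 39564 CPM in members against 30034 in other cells of Ctrl, 38268 against 28756 in LP1 and 19887 against 15657 in LP4. Most of this was *Gm42418*, a locus that overlaps ribosomal RNA, at 29200 against 20071, 29314 against 20167 and 12011 against 7817 CPM, and its part in the results was not tested. Between libraries 9, 7 and 3 scored barcodes were shared, none of them a member in both.

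**Figure D1:**
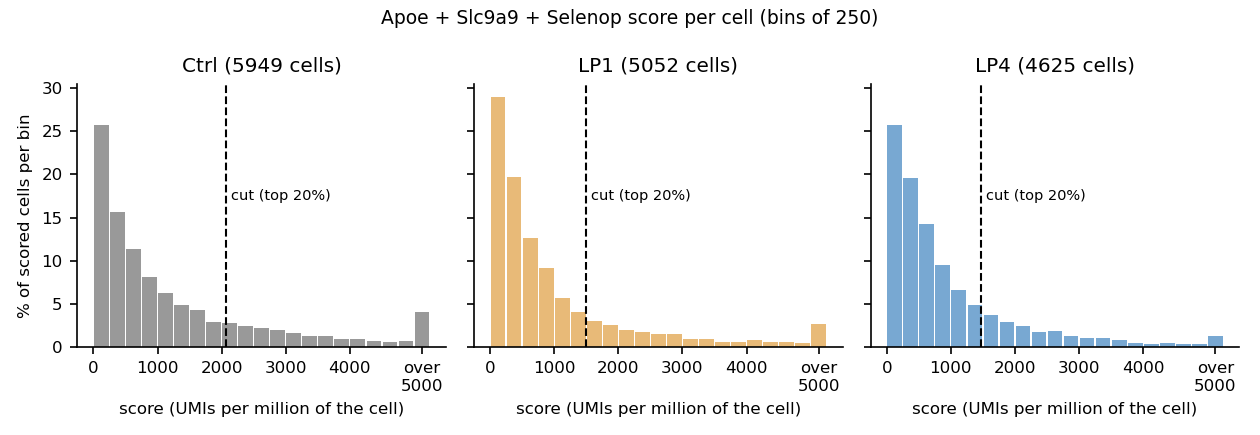
Distribution of the score in each library, in bins of 250 CPM of *Apoe*, *Slc9a9* and *Selenop* together, as a percentage of scored cells; the last bar collects all cells over 5000 and the dashed line is the cut. The cut at 2066 (Ctrl), 1495 (LP1) and 1473 (LP4) falls on a smooth slope in every library.

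*Apoe* was the gene most concentrated in the members. It stood at 1645 CPM in members against 102 in other cells of Ctrl, 1170 against 53 in LP1 and 928 against 48.4 in LP4. *Selenop*, by contrast, was found in most cells, with a UMI in 98.6%, 99.4% and 99.9% of members and in 75%, 84.5% and 91.8% of other cells (19%, 15% and 13.8% of neutrophil-like cells), and stood at 1452 against 359 CPM in Ctrl, 1367 against 310 in LP1 and 1661 against 388 in LP4. *Slc9a9* stood at 689 against 134 CPM in Ctrl, 543 against 88.9 in LP1 and 112 against 32.4 in LP4, so that its level after 4 hours in members was below its level in the untreated other cells. At least 1 *Apoe* UMI was found in 78.3%, 73.4% and 73.8% of members and in 22.6%, 19% and 22.7% of other cells. In the few neutrophil-like cells, which should lack the gene, the share was 9.52% of 21 cells (median 3947 UMIs), 5% of 20 (6220 UMIs) and 0 of 29 (9303 UMIs). When the UMIs of each cell were split at random and one part chose the members while the other described them, the log2 ratio of members to other cells was 3.60, 4.24 and 3.98 for *Apoe*, 2.04, 2.34 and 1.66 for *Slc9a9* and 1.74, 1.97 and 1.88 for *Selenop*, with 86% to 88.5% of the cells also members by all their UMIs.

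The members were not uniform in which gene put them there. All 3 genes were detected in 63.4% of Ctrl members, 61.4% of LP1 members and 40.8% of LP4 members. *Apoe* led (had the most UMIs of the 3) in 43.3%, 33.2% and 24.2% of members, *Selenop* in 40.7%, 52.9% and 73.8%, and *Slc9a9* in 9.33%, 7.72% and 0%, the rest being ties. Across cells thinned to 2000 UMIs the Spearman correlation of *Apoe* with *Slc9a9* was 0.24, 0.22 and 0.10, of *Apoe* with *Selenop* 0.29, 0.30 and 0.26, and of *Slc9a9* with *Selenop* 0.31, 0.26 and 0.16 in Ctrl, LP1 and LP4, over 5949, 5052 and 4625 cells that share a library. The 3 genes thus went together only weakly from cell to cell, and *Slc9a9* contributed 18.2% of the rule UMIs of members in Ctrl but 4.15% in LP4.

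Members led by different genes were alike in some transcripts and apart in others. *C1qb*, a chain of complement C1q, was at 145, 177 and 140 CPM in Ctrl members led by *Apoe*, *Slc9a9* and *Selenop*, and *Il1b* at 775, 849 and 719 CPM. *F13a1* was at 137, 157 and 95.5 CPM, *Cd86* at 370, 655 and 508, *Ccl7* at 332, 544 and 510, and *Mrc1* at 215, 323 and 331. Members led by *Apoe* thus had the lowest levels of *Cd86*, *Ccl7* and *Mrc1*. *Lpl*, lipoprotein lipase, was at 913, 402 and 651 CPM in the same order, and the MHC class II gene *H2-Aa* at 24.8, 11.7 and 14.6 CPM, and in LP1 at 52.3, 1.64 and 10.3. Cells with at least 1% of UMIs from MHC class II markers were 5 of the Ctrl members and 3 of the LP1 members. How far these few cells carry the *H2-Aa* levels was not tested. The macrophage elastase *Mmp12* followed the order of *Lpl* in Ctrl, at 196, 40.8 and 112 CPM. Members led by *Apoe* were thus the highest of the 3 groups in *Lpl* and *Mmp12* in Ctrl, but not in *Lpl* in LP1 (926, 517 and 985 CPM), and all 3 groups of Ctrl were below the other cells, which held 2342 CPM of *Lpl* and 611 of *Mmp12*.

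The neighbours of *Apoe* were also richer in the members, at low levels. *Apoc1*, a small apolipoprotein, was at 8.17 CPM in members against 1.18 in other cells of Ctrl, 4.46 against 0.317 in LP1 and 4.94 against 0.365 in LP4. *Apoc2*, which activates lipoprotein lipase, was at 4.69 against 0.672 CPM, 3.98 against 0.657 and 3.01 against 0.5. *Apoc4* was at 4.87 against 0.639 CPM, 3.38 against 0.408 and 2.58 against 0.327. All 3 stayed under the 10 CPM set as the least level for counting a gene. Other genes with functions like those of the rule genes were counted beside all genes of Ctrl, of which 7.87% were 1.5-fold higher in members and 12.8% lower. Of 17 other selenoproteins and selenium supply genes measured in Ctrl none was 1.5-fold higher and 2 were lower, and of 18 genes of cholesterol efflux and lipid handling 2 were higher and 4 lower. The 2 were *Mylip*, which marks lipoprotein receptors for breakdown, and *Abca1*, the pump that loads cholesterol onto apolipoproteins, at 668 CPM in members against 299 in Ctrl, 589 against 240 in LP1 and 371 against 204 in LP4. Among 5 genes of sodium-proton exchange only the scaffold *Slc9a3r1* was over 1.5-fold higher in Ctrl, at 60.5 against 36 CPM.

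Over all genes at 10 CPM or more, members differed from the other cells more often by lower than by higher levels. Of 7791 genes in Ctrl, 613 (7.87%) were at least 1.5-fold higher in members and 1000 (12.8%) lower; in LP1 649 of 7833 (8.29%) were higher and 1142 (14.6%) lower; and in LP4 323 of 7492 (4.31%) were higher and 973 (13%) lower. In all 3 libraries together 167 of 6965 genes (2.4%) were higher and 426 (6.12%) lower. That split depends on the scaling, since with median-of-ratios factors, which raised the log2 ratios of members to other cells by 0.11, 0.11 and 0.22, the counts were 332 higher and 258 lower in all 3 libraries, and 854 and 710 in Ctrl, 898 and 840 in LP1 and 805 and 477 in LP4. TMM factors gave 212 and 355 in all 3 libraries, and 499 and 716 in LP4. Since the score chose the members from these same libraries, nothing is read from these counts, and the lists below are to be set beside them.

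**Figure D2:**
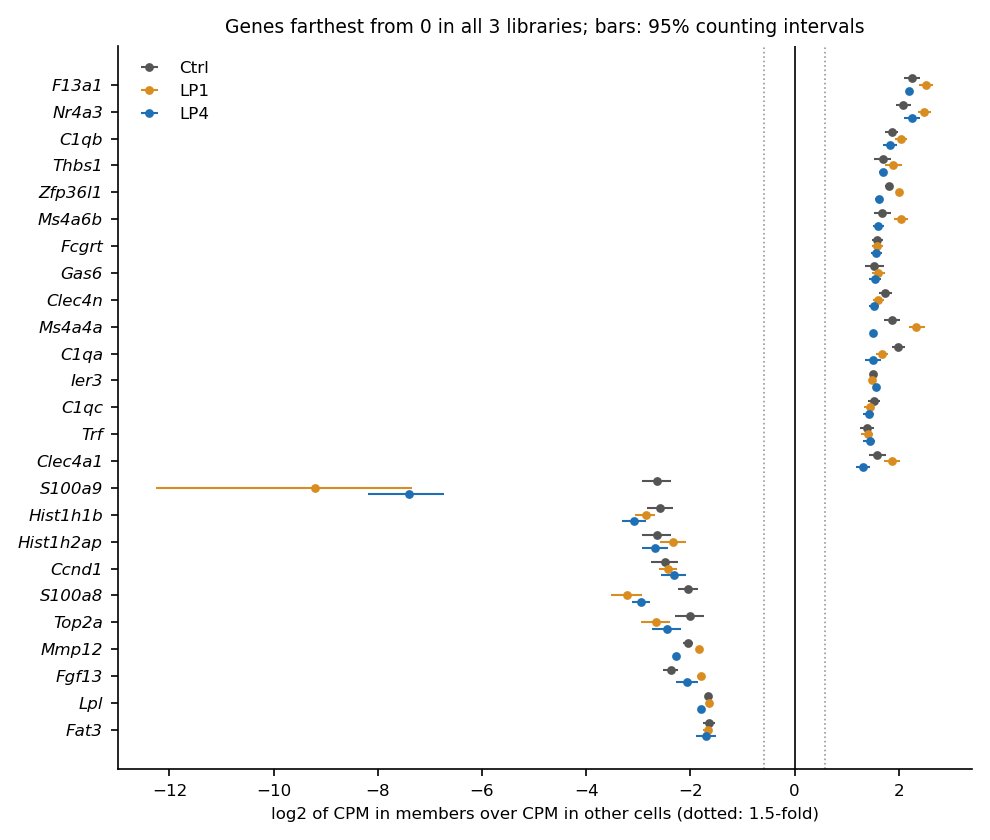
Log2 ratio of CPM in members to CPM in other cells for the 15 genes highest and the 10 lowest in members by the value nearest 0 over the libraries, among genes at 50 CPM or more, with bars for 95% counting intervals. *F13a1* leads the higher genes at 2.25, 2.52 and 2.19 in Ctrl, LP1 and LP4, and *S100a9*, which rests on 2 UMIs in LP1 members, has the widest interval.

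Complement C1q and most measured genes of a resident-type macrophage list were higher in the members of every library. C1q starts the classical complement pathway and is made of chains from 3 genes that sit together within 18.7 kb at chr4:136880129-136898803. *C1qa* was at 189 CPM in members against 47.5 in other cells of Ctrl, 120 against 37.4 in LP1 and 58.9 against 20.9 in LP4. *C1qb* was at 148 against 40.6 CPM, 114 against 27.8 and 70.7 against 19.9, a log2 ratio of 1.87 (95% interval 1.74 to 1.99), 2.04 (1.92 to 2.16) and 1.83 (1.69 to 1.97). *C1qc* was at 165 against 57 CPM, 163 against 60.2 and 124 against 46.6. *C1qc* had log2 ratios of 1.53, 1.44 (1.34 to 1.53) and 1.42, below those of *C1qb*. All 3 chains were therefore higher in members, and each had its lowest level after 4 hours. Of 11 complement genes measured in Ctrl 5 were 1.5-fold higher in members and 1, the integrin chain *Itgax*, was lower, with a median log2 ratio of 0.53 where the median of all genes was -0.06; in LP1 5 of 10 and in LP4 6 of 12 were higher. The RefSeq promoters of *C1qb* and *C1qc* each held 1 PU.1 core, at -30 and -193, and no AP-1 core.

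Of the 21 resident-type macrophage genes listed, only those at 10 CPM or more were counted, 13 in Ctrl and LP1 and 12 in LP4. Of these 11 were 1.5-fold higher in Ctrl members (median log2 ratio 0.83), 10 in LP1 (0.99) and 9 in LP4 (0.75), and none was lower in any library. The rest of the list was too low to be compared. *Mrc1*, the mannose receptor, was at 278 against 123 CPM in Ctrl, 264 against 118 in LP1 and 348 against 181 in LP4. *Ccl24*, a chemokine for eosinophils, was at 55.8 against 15.2 CPM, 41.1 against 15.7 and 84.6 against 15.3. *Gas6*, the bridging ligand by which receptors such as *Mertk* recognise dying cells, was at 68.3 against 23.7 CPM, 91 against 29.7 and 88.9 against 30.6, and so held the same log2 ratio of about 1.5 in every library (1.53, 1.61 and 1.54). With a score without *Selenop* its value nearest 0 over the libraries was 0.94. *Folr2* and *Igf1*, which belong to the same list, were not higher, at 30.8 against 41.5 and 1137 against 1215 CPM in Ctrl.

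*F13a1*, coagulation factor XIII A, a gene of monocytes and some macrophages, had, *Apoe* aside, the highest value nearest 0 over the libraries among genes at 50 CPM or more (log2 ratio 2.19 in LP4). Its level was 119 CPM in members against 25.1 in other cells of Ctrl, 104 against 18.2 in LP1 and 463 against 101 in LP4. Of the membrane-spanning Ms4a genes, clustered on chromosome 19, 5 of 6 were 1.5-fold higher in Ctrl members and 5 of 7 in LP1 and in LP4. *Ms4a4a* was at 109 against 29.9 CPM, 81.4 against 16 and 433 against 153, and *Ms4a6b* at 85.9 against 26.8, 99 against 24 and 130 against 42.5. Among Fc receptors, which bind antibody, 4, 3 and 3 of 7 were higher. The inhibitory receptor *Fcgr2b* was at 120 against 38.2 CPM, 135 against 31.3 and 270 against 151, and *Fcgrt*, the neonatal receptor that recycles antibody, at 215 against 71.3, 149 against 49.4 and 120 against 40.6, while the common gamma chain *Fcer1g* was level at 1792 against 1798 CPM in Ctrl. The lectin receptors *Clec4n* (159 against 47.5 CPM in Ctrl, 145 against 47.5 in LP1, 127 against 44.3 in LP4) and *Clec4a1*, the secreted matrix protein *Thbs1* and transferrin (*Trf*) were also among the genes at least 1.5-fold higher in members of all 3 libraries.

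Members held more transcripts of several cytokines before any lipoprotein was given. *Il1b* was at 767 CPM in members against 318 in other cells of Ctrl, 924 against 358 in LP1 and 1909 against 766 in LP4. *Il1a* was at 251 against 101 CPM, 239 against 98.6 and 708 against 288, and *Il1rn*, the antagonist of both, at 495 against 239, 465 against 228 and 1820 against 892. Their ratios changed little with treatment, with log2 ratios of 1.27, 1.37 and 1.32 for *Il1b*. *Il10*, an inhibitory cytokine, was at 168 against 87.4 CPM, 169 against 92.8 and 299 against 112. The neutrophil growth factor *Csf3* was low but graded alike, at 13.2 against 2.89, 11.2 against 2.13 and 30.5 against 6.65 CPM. Of the whole list of cytokines and chemokines 11 of 17 were 1.5-fold higher in Ctrl members, 12 of 18 in LP1 and 11 of 21 in LP4, where 1 was lower. *Tnf* did not take part, at 708 against 866 CPM in Ctrl, 963 against 1148 in LP1 and 263 against 284 in LP4.

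Immediate early genes, which are switched on within minutes of a signal or of handling, were also richer in untreated members, with 13 of 24 at least 1.5-fold higher in Ctrl, 11 of 24 in LP1 and 7 of 18 in LP4, where 1 was lower. *Egr3* was at 119 against 22.3 CPM, 128 against 17.5 and 14.8 against 3.77. The nuclear receptor *Nr4a3* was at 117 against 27.5 CPM, 134 against 23.9 and 70.4 against 14.7. Its log2 ratio nearest 0 over the libraries was 2.09, and 1.45 with a score without *Selenop*. *Zfp36l1*, a factor that destabilises mRNAs of cytokines and growth factors, was at 389 against 111 CPM, 483 against 120 and 312 against 102, and *Ier3*, an early response gene of cell survival, at 1201 against 421, 1129 against 403 and 799 against 269. *Zfp36l1* and *Ier3*, with *Ccl3*, *Ccl4* and *Cd86*, were named by the study for its phagocytic macrophages on these samples, so their higher levels (5 of 5 in Ctrl and LP1, 4 of 5 in LP4) are not independent evidence.

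Genes lower in members included several of lipid-associated and of dividing macrophages, beside others such as the fibroblast growth factor homologue *Fgf13* and the cadherin *Fat3* (124 against 387 CPM in Ctrl, 138 against 439 in LP1, 23.8 against 77.4 in LP4). *Lpl* was at 734 CPM in members against 2342 in other cells of Ctrl, 920 against 2883 in LP1 and 731 against 2524 in LP4. *Mmp12* was at 148 against 611 CPM, 271 against 963 and 233 against 1133. *Spp1*, osteopontin, was at 170 against 441 CPM, 297 against 802 and 396 against 968, and the protease *Ctsk* at 39.3 against 95.5, 39.2 against 112 and 35.7 against 146. Of 11 lipid-associated macrophage genes 6, 5 and 7 were 1.5-fold lower in Ctrl, LP1 and LP4 and none was higher. Best known of the list, *Trem2* (1486 against 1642 CPM in Ctrl) and *Gpnmb* (7451 against 8860) did not pass 1.5-fold. *Fgf13*, *Ccnd1*, *Lpl*, *Lgals3*, *Atp6v0a1* and *Actb*, named by the study on these samples for its antigen-presenting macrophages, were lower by 1.5-fold in 6, 5 and 5 of 6 cases, again no independent evidence. *Fgf13* was at 74.7 against 388 CPM, 135 against 470 and 21.7 against 90.1. The MHC class II genes themselves went the other way in Ctrl and LP1, where their sum was 232 CPM in members against 136 and 242 against 130, and were close in LP4, at 164 against 150. They were not graded along the score, since the lowest decile of the score held 197, 295 and 341 CPM and the highest 298, 237 and 240.

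Dividing cells were scarce among members. Cells with at least 0.5% of their UMIs from S phase, G2 and mitosis genes made up 0.588% of Ctrl members (exact binomial 95% interval 0.237% to 1.21%) against 3.21% (2.73% to 3.76%) of the others, 0.297% against 4.43% in LP1 and 0.216% against 2.57% in LP4. Of the S phase genes 12 of 13, 13 of 14 and 9 of 10 were 1.5-fold lower in members, and of the G2 and mitosis genes 9 of 10, 12 of 13 and 10 of 11. The exception was the most abundant of the latter, the proliferation marker *Mki67*, at 236 against 218 CPM in Ctrl, 214 against 223 in LP1 and 350 against 290 in LP4. *Top2a*, a topoisomerase of dividing cells, was at 19.8 against 79.8 CPM, 14.4 against 90.9 and 12 against 65.8, and the linker histone *Hist1h1b* at 24.2 against 145, 28.8 against 210 and 17.4 against 148. Of 5 neutrophil genes measured 4 were lower in each library, with *S100a9* at 20.7 against 129 CPM, 0.241 against 142 and 1.82 against 311, and 1, 0 and 0 of the 21, 20 and 29 neutrophil-like cells were members. *Mmp8*, the most abundant of that list in members, lay the other way, at 239 against 161 CPM in Ctrl, 238 against 162 in LP1 and 249 against 173 in LP4, short of 1.5-fold. With members chosen within deciles of UMIs per cell, the value nearest 0 over the libraries went from -2.01 to -1.10 for *Top2a*, from -2.58 to -1.57 for *Hist1h1b*, from -1.65 to -0.99 for *Lpl* and from -1.83 to -1.21 for *Mmp12*. Among higher genes it went from 1.62 to 1.16 for *Zfp36l1*, from 1.48 to 1.12 for *Ier3* and from 1.31 to 1.08 for *Clec4a1*, while that of *F13a1* was 2.22. With neutrophil-like, MHC class II high and dividing cells left out, the value of *S100a9* nearest 0 went from -2.64 to -0.45, while 174 and 383 genes in place of 167 and 426 were higher and lower in all 3 libraries. Medians over cells lay the same way for *Lpl*, at a median of 0 CPM per cell in Ctrl members against 2105 in the other cells, 162 against 2803 in LP1 and 110 against 2295 in LP4.

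Members overlapped little with the cells richest in the opposing genes. Of the members, 2.69% in Ctrl, 2.67% in LP1 and 2.92% in LP4 were also in the top 20% by *Fgf13*, *Ccnd1* and *Lpl*, and 3.87%, 4.26% and 2.59% in the top 20% by *Lgals3* and *Atp6v0a1*, where the sets are of equal size and hold 20% of all scored cells. Shares of a cell's UMIs limit each other, so that a high share of some genes lowers the rest, and how far this bears on the overlap was not tested.

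For C1q, *Lpl*, *F13a1* and *Il1b* the differences ran along the score and not at the cut alone. In Ctrl the sum of the C1q chains went from 54.1 CPM in the lowest decile of the score to 154 in the fifth and 637 in the highest, and *Lpl* from 2770 to 2368 and 484. In LP4 *F13a1* went from 28.7 to 110 and 595 CPM, and *Il1b* from 452 to 794 and 2165. Both directions were thus graded over cells that are not members. The genes whose share of UMIs was most like the score across cells, by the smallest of the Spearman correlations in the 3 libraries over 2478 genes, were *Lyz2* (0.54), *Emp1* (0.38), *Ier3* (0.37), *Itm2b* (0.35), *Abca1* (0.34), *Ms4a7* (0.34), *Csf1r* (0.33), *Plek* (0.33), *Fcgrt* (0.33) and *Il1b* (0.32). The cells share their libraries and their depth, and with each cell thinned to 2000 UMIs the correlation of *Lyz2*, lysozyme, was 0.46, 0.44 and 0.43 while that of *Csf1r*, the receptor for the macrophage growth factor, was 0.22, 0.20 and 0.13.

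**Figure D3:**
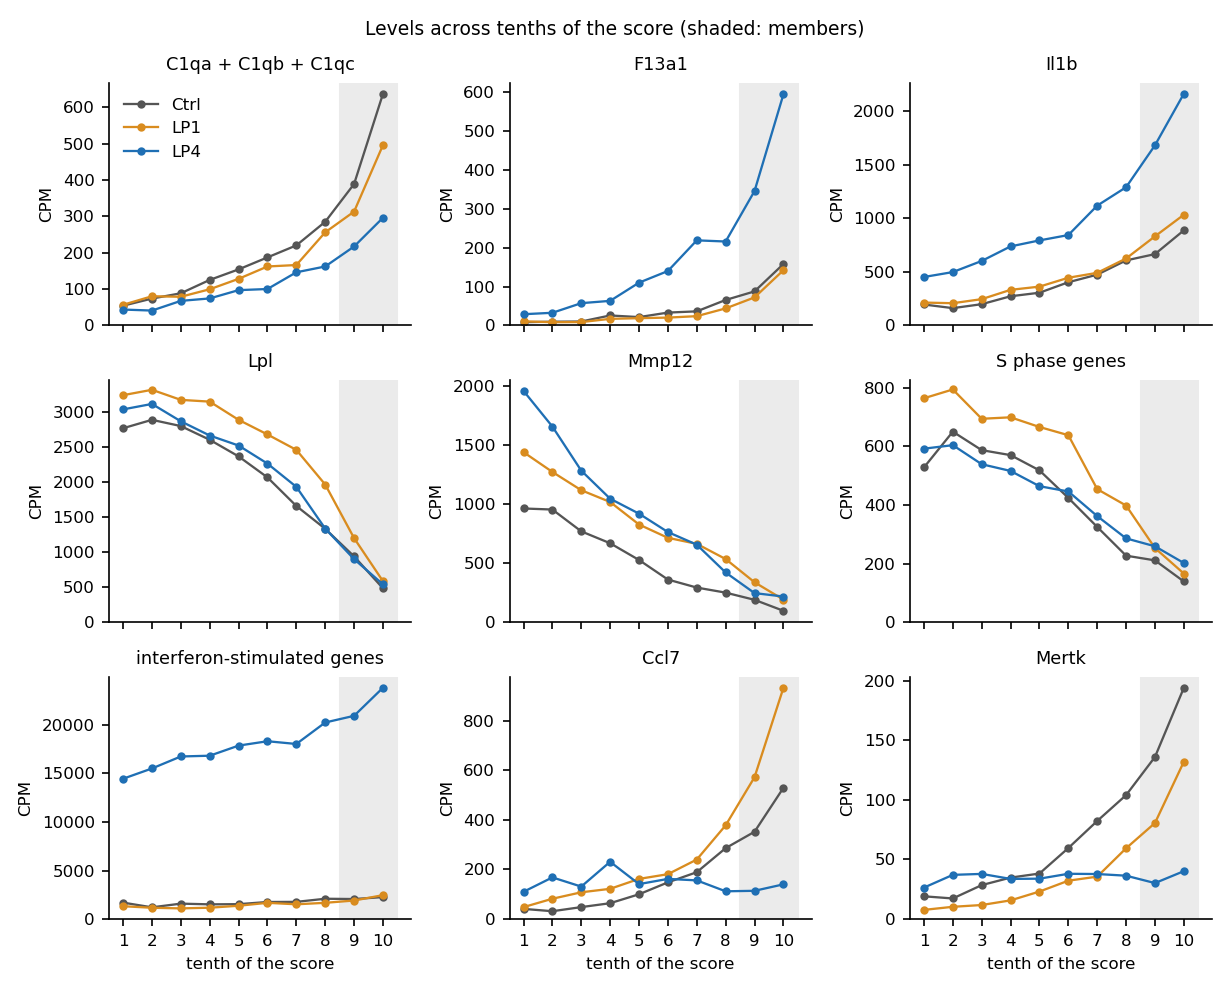
Summed CPM of C1q chains, S phase genes and ISGs and CPM of 6 genes in each decile of the score (1 lowest, 10 highest) in Ctrl, LP1 and LP4, with the members' deciles shaded. C1q in Ctrl climbs from 54.1 to 637 CPM and *Lpl* declines from 2770 to 484. *Ccl7* and *Mertk* are graded in Ctrl and LP1 but show no steady rise or fall in LP4.

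After 1 hour of *Bb*LP few genes of the members had moved by 2-fold. Of 7509 genes 63 (0.839%) were at least 2-fold higher in LP1 than in Ctrl members and 39 (0.519%) lower, and in the other cells 60 (0.77%) and 40 (0.513%) of 7793. Under TMM factors the members' counts were 84 and 26, and under median-of-ratios factors 84 and 31. They were 112 and 71 with the top 10% as members, and 94 and 63 with split UMIs. *Cebpb*, a transcription factor of inflammatory genes, went from 107 to 385 CPM in members and from 96.9 to 338 in other cells, log2 changes of 1.85 (1.72 to 1.97) and 1.80. The chemokine *Ccl4* went from 336 to 984 CPM in members and from 70.3 to 160 in other cells, and *Ccl2*, which recruits monocytes, from 128 to 306 and from 54.4 to 151. *Sod2*, a mitochondrial antioxidant enzyme, went from 122 to 265 CPM and the endosomal protease *Lgmn* from 257 to 608. *Gnb2*, *Arf5*, *Selenok*, *Btf3* and *Pfn1* rose in members by 1.24 to 1.51 on the log2 scale, close to their values in other cells. Of the early genes only *Junb* and *Btg2* passed 2-fold in members (739 to 1510 and 65 to 132 CPM).

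Among genes at 50 CPM or more, those that fell most in LP1 members included *Glp2r* (60.7 to 23.6 CPM) and *Lst1* (132 to 60 CPM), and with them 5 small proteins of the mitochondrial inner membrane, *Romo1*, *Uqcr11*, *Atp5j2*, *Ndufa2* and *Ndufa3*, and *Anapc13*, a subunit of the anaphase-promoting complex. *Uqcr11*, of respiratory complex III, went from 333 to 154 CPM in members and from 381 to 178 in other cells, log2 changes of -1.12 (-1.22 to -1.01) and -1.10, and stayed at 145 and 180 CPM in LP4. *Romo1* went from 201 to 90.1 CPM in members and from 248 to 110 in other cells, so members and other cells shared these falls. Of 27 ISGs 0 passed 2-fold in either direction in LP1 members, where the median log2 change was 0.07, and 0 of 26 in other cells, where it was -0.39. For 5 of 27 the change was at least 1.5-fold larger in members, as it was for 0.968% of all genes.

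At 4 hours the members' transcripts had changed widely. Of 7774 genes 1006 (12.9%) were 2-fold higher in LP4 than in Ctrl members and 1258 (16.2%) lower, where in the other cells 839 (10.4%) and 748 (9.3%) of 8043 were. TMM factors, which raised every log2 change of the members by 0.21, gave 1378 higher and 887 lower, and median-of-ratios factors 1406 and 890, so the excess of lower genes turned under these factors, while without mitochondrial and ribosomal protein genes the counts were 971 and 1435 and with the mean of the cells' UMI shares 1023 and 1288. The median LP4 member held more UMIs than the median Ctrl member (9176 against 4118), and members were chosen anew in each library by genes of which *Slc9a9* itself fell, so the cells compared are not one population followed in time. A change in the members cannot be told apart from a change in which cells have the highest score. Nuclear-retained RNAs, a sign of RNA quality, also fell from Ctrl to LP4, from 39564 to 19887 CPM in members and from 30034 to 15657 in other cells. How far this bears on the changes was not tested.

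The interferon response was strong in members and in other cells alike. Of 28 ISGs 25 were 2-fold higher in LP4 members, with a median log2 change of 2.84, and 25 of 28 in the other cells, with 3.05, while the median of all genes was -0.11 and -0.07. *Ifit1*, which binds viral RNA, went from 48.1 to 2617 CPM in members and from 37 to 1888 in other cells. *Rsad2*, viperin, went from 167 to 6461 CPM and from 120 to 4731. *Cxcl10*, a chemokine for T cells, went from 38.9 to 1185 CPM and from 16.4 to 875. Levels in LP4 were thus higher in members, and summed over the list they went from 14449 CPM in the lowest decile of the score to 23817 in the highest, yet only 3 of 28 passed 1.5-fold between members and other cells. In Ctrl 8 of 27 ISGs were 1.5-fold higher in members and in LP1 14 of 27. The guanylate-binding proteins *Gbp5* and *Gbp7* were among them, *Gbp5* at 52 against 20.8 CPM in Ctrl and 1188 against 920 in LP4, and *Gbp7* at 51.4 against 17.3 and 183 against 138.

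Of 21 cytokines and chemokines 13 rose 2-fold in LP4 members and 4 fell, with a median log2 change of 1.32, and in the other cells 13 rose and 3 fell of 20, with 1.70. *Cxcl3*, which attracts neutrophils, went from 5.56 to 728 CPM in members and from 3.7 to 469 in other cells, log2 changes of 7.03 (6.53 to 7.58) and 6.99 (6.72 to 7.27). *Il1rn* went from 495 to 1820 CPM and from 239 to 892, and *Il1b* from 767 to 1909 and from 318 to 766, so that the excess in members was kept. *Il15* went from 100 to 982 CPM and from 51.9 to 743. *Tnf* and *Cxcl2* fell, from 708 to 263 CPM and from 5672 to 2644 in members, and in other cells from 866 to 284 and from 4125 to 1283. Of the enzymes of activation 10 of 11 rose in members (median log2 change 3.01) and 10 of 11 in other cells (2.41). The inducible nitric oxide synthase *Nos2* rested on 1 UMI in Ctrl members and was at 209 CPM in LP4, a log2 change of 10.23 (7.75 to 15.54), beside 187 CPM in the other cells. *Ch25h*, which makes an oxysterol, likewise had 1 UMI in Ctrl members and 140 CPM in LP4. Of 10 genes of lipoprotein sensing 3 rose in members, *Cd14* from 380 to 2051 CPM, *Myd88* from 16 to 72.4 and *Tirap* from 9.91 to 30.2.

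Immediate early genes fell most. Of 24, 16 were 2-fold lower in LP4 members and 1 higher, with a median log2 change of -1.81, and in the other cells 15 and 1, with -1.94. *Fosb* went from 250 to 2.15 CPM in members and from 101 to 1.35 in other cells, and *Egr1* from 525 to 4.94 and from 241 to 3.11. *Nr4a1* went from 128 to 2.9 CPM and from 68.2 to 1.69. These factors were therefore near absent in both sets of cells after 4 hours, from a higher start in members. Of the resident-type genes 4 of 13 fell in members and 1 rose (*F13a1*, from 119 to 463 CPM), with a median of -0.76. *C1qa*, of the complement list, went from 189 to 58.9 CPM in members and from 47.5 to 20.9 in other cells, whereas *Pf4*, a platelet-type chemokine of macrophages, stayed at 3766 and 3330 CPM in members.

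**Figure D4:**
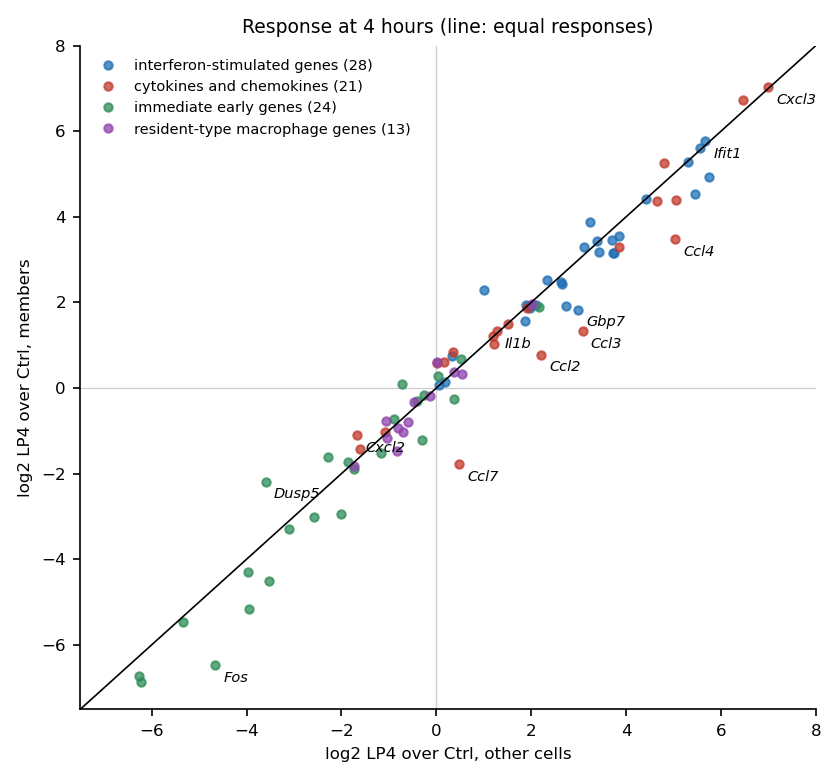
Log2 change from Ctrl to LP4 in other cells (x axis) and in members (y axis) for the measured genes of 4 lists, with the line of equal changes. Most ISGs and *Cxcl3* lie near the line, *Gbp7* lies below it (1.83 in members and 2.99 in other cells), and *Ccl7* lies far below it, at -1.78 in members and 0.48 in other cells.

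Some genes that set the members apart in Ctrl and LP1 did so less, or no longer, in LP4, where the members were chosen anew. Of 8258 genes 765 (9.26%) had a log2 change from Ctrl to LP4 at least 1.5-fold smaller in members than in other cells and 396 (4.8%) a larger one, and of 8056 genes 95 (1.18%) and 78 (0.968%) did so from Ctrl to LP1. With members chosen within deciles of UMIs per cell, 722 genes differed at 4 hours in place of 1161. Median-of-ratios factors raised the changes at 4 hours by 0.22 in members and 0.10 in other cells, so the split also depends on the scaling. The monocyte chemokine *Ccl7* was at 432 CPM in members against 109 in other cells of Ctrl, 736 against 161 in LP1 and 126 against 152 in LP4. In members its log2 change was 0.77 at 1 hour, short of 2-fold, and -1.78 (-1.88 to -1.68) at 4 hours, and in other cells the change at 4 hours was 0.48 (0.42 to 0.54). *Mertk*, the receptor by which macrophages engulf dying cells, was at 162 against 46.4 CPM, 104 against 23.7 and 34.9 against 35. *Cd86*, a costimulatory ligand, was at 458 against 108 CPM, 404 against 73.7 and 151 against 61.8. In LP4 the levels of *Ccl7* and *Mertk* in members, scaled by total UMIs, were no longer above those in other cells, with log2 ratios of -0.27 and -0.01. *Cd86* stayed over 1.5-fold higher. Median-of-ratios factors raised the LP4 ratios by 0.22, which left *Ccl7* at -0.05 and put *Mertk* slightly above 0.

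For *Ccl3*, *Ccl4*, *Ctsc* and *Tlr2* the gap between members and other cells narrowed by 4 hours, with a larger log2 change in the other cells. The chemokine *Ccl3* was at 379 against 84.7 CPM in Ctrl, 805 against 164 in LP1 and 946 against 715 in LP4, log2 changes at 4 hours of 1.32 (1.25 to 1.39) in members and 3.08 (3.02 to 3.14) in other cells. *Ccl4* went to 3764 CPM in LP4 members and 2302 in other cells, from 336 and 70.3, and so stayed over 1.5-fold higher in members. *Ctsc*, a protease that activates others, was at 437 against 104 CPM, 432 against 111 and 352 against 243, and *Tlr2*, the receptor for the lipoproteins given, at 207 against 87.4, 244 against 95 and 376 against 296. The log2 ratio of members to other cells for *Tlr2* was therefore 1.25 in Ctrl and 0.34 in LP4. Of the cytokine list 5 of 21 had a smaller change in members and 0 a larger one. *Fos* fell further in members, from 845 to 9.45 CPM against 686 to 27.2, and the inhibitor of DNA binding *Id3* went from 269 to 15.7 CPM against 115 to 14.4.

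A smaller group was lower in members of Ctrl and LP1 and higher in those of LP4. *Inhba*, the subunit of activin A, was at 1.39 CPM in members against 3.46 in other cells of Ctrl, 1.93 against 5.16 in LP1 and 108 against 57.7 in LP4. *Hdac9*, a histone deacetylase, was at 9.73 against 28.1 CPM, 10.1 against 38.9 and 233 against 147, log2 changes at 4 hours of 4.58 (4.20 to 4.99) and 2.38 (2.28 to 2.49). The growth factor *Pdgfa* was at 23.3 against 62 CPM, 32.8 against 76.9 and 343 against 268. Among enzymes and transporters of activation some genes had a larger change in members. Over all genes 4.8% had a larger change and 9.26% a smaller one. The difference of response was 1.49 for *Nos2* and -1.02 for *Ch25h*, each with 1 UMI in Ctrl members. *Ptges*, which makes prostaglandin E, went from 38.8 to 339 CPM in members and from 44.3 to 175 in other cells, and the arginine transporter *Slc7a2* from 70.2 to 700 and from 197 to 746. *Dusp5*, a phosphatase of the MAP kinase ERK, was close in members and other cells before treatment, at 222 and 239 CPM, and was at 48.7 against 19.6 in LP4. Over the 18 other settings tried the log2 change in members minus that in other cells for *Hdac9* was between 1.94 and 2.58 and that for *Pdgfa* between 1.27 and 2.09, whereas that for *Inhba*, which had only 8 UMIs in Ctrl members, was between 0.70 and 3.99.

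**Figure D5:**
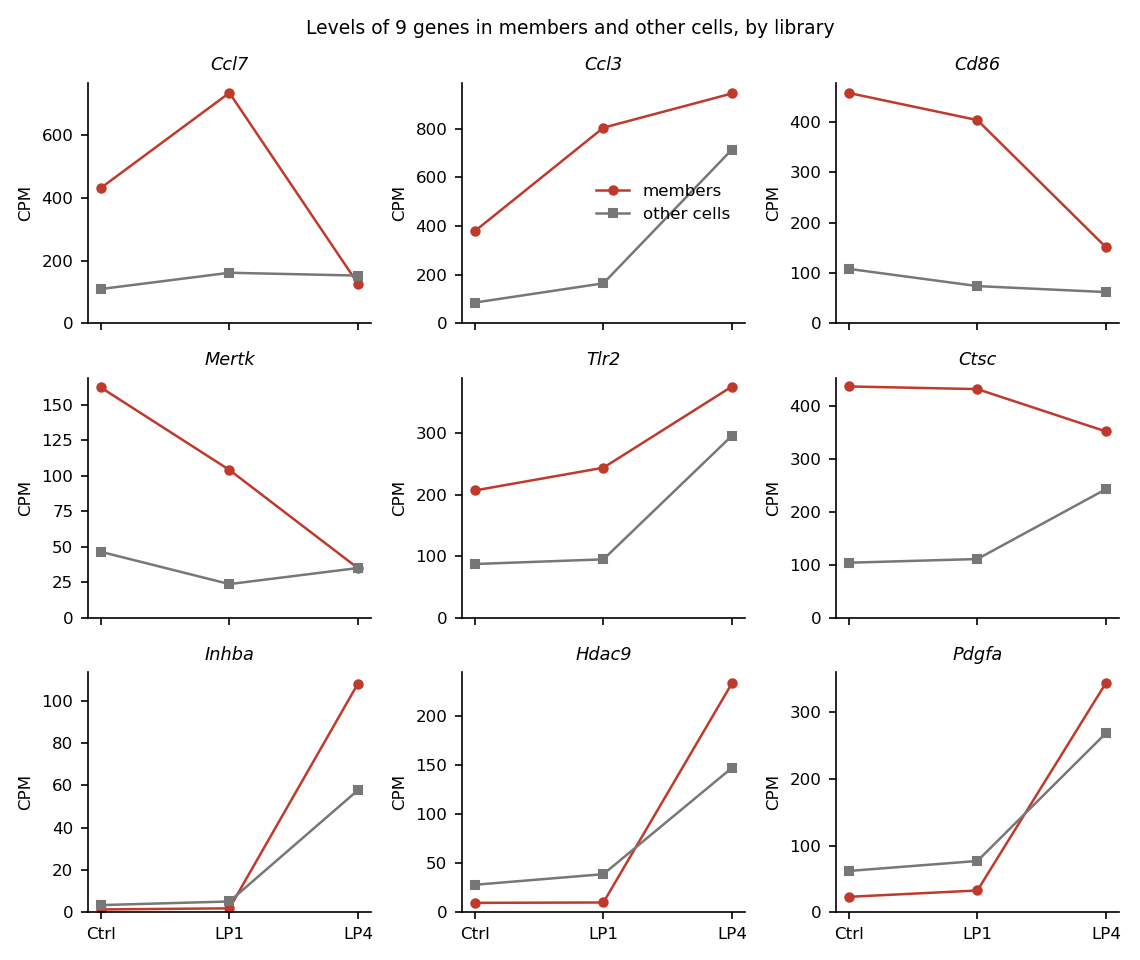
CPM of 9 genes in members (circles) and other cells (squares) of Ctrl, LP1 and LP4, each panel on its own scale from 0. *Ccl7*, *Mertk* and *Cd86* decline in LP4 members. *Ccl3* and *Tlr2* climb in members and in other cells, and *Ctsc* climbs in the other cells alone. *Inhba*, *Hdac9* and *Pdgfa* pass from lower to higher in members.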

How the data were processed

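Droplet libraries (10x Genomics 3′ chemistry, v3.1) were made from Ctrl, LP1 and LP4 BMDMs, 1 library each. The deposited values are whole UMI counts per gene and barcode over 32285 genes, which the authors made with Cell Ranger (7.1.0 per the labels, mouse build mm10) and filtered to cell barcodes; whether intronic reads were counted is not given in the sources used here. Deposited libraries held 35749924, 52773906 and 64787139 UMIs over 6123, 5119 and 5039 barcodes (Ctrl, LP1, LP4).

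Members and gene lists were chosen with earlier results of these data known. UMIs of members and of other cells were summed per library and scaled to CPM by their total. Ratios carry exact conditional binomial 95% intervals, which hold the error of counting alone. As a condition had 1 library, replicate error was unknown and no test was run. A gene counted as higher or lower at 1.5-fold (members against other cells, and differences of response) or 2-fold (LP1 or LP4 against Ctrl), among genes at 10 CPM or more in at least 1 of the sums compared, the 3 rule genes left out of members against other cells. Genes named without a list were those at 50 CPM or more that had the highest or lowest value nearest 0 over the libraries, the largest changes in members, the largest differences of response and the closest Spearman correlation to the score. Cells were thinned to 2000 UMIs where stated. Scrublet called 0, 1 and 0 cells doublets and so did not work as a caller; no doublets were removed, and by its score rank 3.7%, 4.06% and 3.14% of members were in the top 5% of cells. Neutrophil-like and MHC class II high cells had at least 1% of UMIs from those markers, and dividing cells at least 0.5% from cell cycle genes. Promoters came from RefSeq (GRCm38.p6) and gene positions from GENCODE. Alternatives were other members (top 10%, scores without 1 gene, split UMIs, UMI deciles), scalings and minimum levels. One gene of the lists is not reported here by name. The computation was checked on simulated data. Sums and intervals were made with scipy 1.17.1 and numpy 2.4.6 under Python 3.11.15, tables with pandas 2.3.3, doublet scores with scanpy 1.11.5, plots with matplotlib 3.10.9 and TMM factors alone with edgeR 4.0.16 under R 4.3.3.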

Additional observations from a re-analysis of the deposited data

Results flagged for a closer look

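The following differences were not tested, since each condition was 1 library. Given here are genes named by the rule whose values lay on opposite sides of 0, at least 1 apart on the log2 scale and each with a counting interval clear of 0. From Ctrl to LP4 the log2 change went opposite ways in members and in other cells for *S100a9* (-3.50 and 1.27) and *Ccl7* (-1.78 and 0.48). *S100a8* (-0.48 and 0.42) did so by less than 1. From Ctrl to LP1 *S100a9* also met these limits (-6.42 and 0.14), with 2 UMIs in LP1 members. *S100a9* in members rests on few UMIs, and its difference of response was -4.77 with all cells and -1.71 with neutrophil-like, MHC class II high and dividing cells left out, with a range of -5.18 to -1.02 over all settings, the latter with a score without *Apoe*. For *Ccl7* the difference of response was -2.26 and lay between -2.49 and -1.75 under the other settings.

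The log2 ratio of members to other cells met the same limits in Ctrl and LP4 for 10 genes. *Klf2*, *Slc28a2*, *Nos2*, *Ch25h* and *Mertk* also changed sign, with an interval that included 0 in Ctrl or LP4. It was above 0 in Ctrl and below in LP4 for *Ccl7* (1.99 and -0.27), *Ccl2* (1.24 and -0.18, where median-of-ratios scaling gave 0.04 in LP4), *Mrps28* (1.43 and -0.62), *Fos* (0.30 and -1.53), *Egr2* (0.53 and -0.69) and *Fgd4* (0.38 and -0.93). It was below 0 in Ctrl and above in LP4 for *Inhba* (-1.32 and 0.91), *Hdac9* (-1.53 and 0.67), *Pdgfa* (-1.41 and 0.36) and *Tma16* (-1.34 and 0.27).

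Barcodes left out for their mitochondrial share also held cells with a high score, though not at a higher share than the 20% of scored cells that the rule sets. At or over the cut were 8 of 41 such barcodes in LP1, or 19.5% (exact binomial 95% interval 8.82% to 34.9%), and 33 of 266 in LP4, or 12.4% (8.7% to 17%), and 0 of 8 in Ctrl, which allows up to 36.9%.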

How the results depend on the processing

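No paired analysis was possible because each condition was 1 library. Over 18 alternatives, 192 of 216 comparisons of 12 main counts and medians stayed within their margin, 24 moved and 0 reversed, and of 1386 for single genes 1103 stayed, 282 moved and 1 reversed, the difference of response of *Nos2*, which was 1.49 and became -0.88 with the UMIs of each cell split (1 UMI in Ctrl members). A changed minimum level cannot alter the value of a single gene, so the 77 comparisons under a minimum of 50 CPM, and the 77 under no minimum, stayed by construction. Members taken as the top 10% gave 112 genes higher and 71 lower in LP1 members than in Ctrl. A score without *Selenop* left 106 genes higher and 263 lower in members of all 3 libraries, choosing within deciles of UMIs left 93 and 215 and 722 differences of response at 4 hours in place of 1161, and split UMIs left 63 lower genes in LP1. Median-of-ratios scaling gave 332 higher and 258 lower. A minimum of 50 CPM gave 93 higher and 133 lower in all 3 libraries, 28 and 16 in LP1, 588 and 487 in LP4 and 362 differences, and no minimum gave 461, 1067, 672, 1087, 1769, 3352 and 4304 in the same order, by the number of genes tested. A single cut for all 3 libraries, chosen after seeing the data, gave 175, 456, 74, 49, 1016, 1360 and 1341. Leaving out neutrophil-like, MHC class II high and dividing cells gave 174, 383, 72, 42, 1005, 1250 and 1118. Median log2 changes at 4 hours in members lay between 2.70 and 3.15 for ISGs, 1.06 and 1.53 for cytokines and -1.95 and -1.59 for immediate early genes. Ratios of low genes were limited by depth, as the members of a library held 15.2% to 16.2% of its UMIs.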

Other observations

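Gene groups of the endosome, lysosome and ribosome were counted beside all genes. Of all genes 7.87%, 8.29% and 4.31% were 1.5-fold higher in members of Ctrl, LP1 and LP4, and 12.8%, 14.6% and 13% lower. Of 17 V-ATPase subunits, which acidify endosomes, 0 were 1.5-fold higher in members of any library and 3, 4 and 3 were lower in Ctrl, LP1 and LP4. Of 20 lysosomal proteases and membrane proteins 3, 4 and 2 were higher and 1 was lower, with *Ctsb* at 6727 CPM in members against 6425 in other cells of Ctrl and *Ctsl* at 3283 against 4679. Of 18 scavenger and efferocytosis receptors 4 were higher in each library, *Mertk* among them in Ctrl and LP1, while *Msr1*, a receptor for modified lipoprotein, was at 370 against 485 CPM in Ctrl, 387 against 526 in LP1 and 728 against 882 in LP4. None of 83 cytosolic ribosomal protein genes passed 1.5-fold in any library, and 5 fell 2-fold from Ctrl to LP4 in members, where 16.2% of all genes did.

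*Id3*, an inhibitor of DNA binding, was at 269 against 115 CPM in Ctrl, 474 against 189 in LP1 and 15.7 against 14.4 in LP4. Nuclear-retained RNAs summed to more in members, as the report gives. *Malat1* among them was at 8235 against 8255 CPM in Ctrl, 7065 against 7090 in LP1 and 6408 against 6826 in LP4.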
